A study of Mus musculus with 12 samples.

Results

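The genes described here encode 4 peptide hormones of the gut: somatostatin (Sst), ghrelin (Ghrl), proglucagon (Gcg) and cholecystokinin (Cck). They were chosen by gene symbol, as every probe set listed for any of these symbols. Each gene had 1 probe set, so 4 probe sets of 22626 and 4 of the 12393 genes with a symbol of their own were followed. RNA came from mucosa scraped from the fundus of the mouse stomach, the acid-secreting part, and was hybridised to one-colour arrays, 3 for each of 4 groups.

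The first group was wild type. The second was gastrin knockout given saline by infusion for 1 week, and the third was gastrin knockout given gastrin for the same time. The fourth was double knockout of gastrin and CCK. Every knockout group therefore lacked gastrin of its own, and only the third received it. The labels describe no infusion for the wild type or the double knockout, so infusion and genotype cannot be told apart in any comparison that sets one of them against an infused group. Age and sex are labelled only for the saline group, as male mice 2 months old. The labels put 2-4 mice behind the wild-type RNA without saying whether each array had its own animals. The p-values below thus speak of the spread among these arrays and of nothing wider, and that spread may be technical. The labels state neither the strain, nor the targeted alleles, nor the dose of gastrin.

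In the stomach, somatostatin is made by D cells and restrains acid secretion, gastrin release and the enterochromaffin-like (ECL) cells. Ghrelin is made by X/A-like cells of the oxyntic glands and acts on growth hormone release and feeding. Proglucagon yields glucagon in the islet and glucagon-like peptides in intestinal L cells, and CCK is made by intestinal I cells and by neurons. Gastrin and CCK share their active carboxyl end, and the CCK-B receptor binds both.

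The 150 bases before the listed transcription start of Sst and Ghrl are shown because these are the hormone genes for which differences passed the test. Both come from RefSeq (GRCm38.p6, minus strand, written 5′ to 3′), at chr16:23890845-23890994 for Sst and chr6:113719912-113720061 for Ghrl. Of 4 starts listed for Ghrl, the outermost was taken. Capitals mark the cAMP response element, TGACGTCA, which reads alike on both strands.
Sst: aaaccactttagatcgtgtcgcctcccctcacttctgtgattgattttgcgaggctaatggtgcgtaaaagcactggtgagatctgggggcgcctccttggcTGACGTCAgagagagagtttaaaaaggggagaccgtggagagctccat
Ghrl: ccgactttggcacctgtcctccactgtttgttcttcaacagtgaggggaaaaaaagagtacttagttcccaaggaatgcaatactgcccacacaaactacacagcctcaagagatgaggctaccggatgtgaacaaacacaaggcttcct
The element's first base lies at -48 from the Sst start, a site known from textbooks as the one bound by CREB. The same letters stood in 447 of 32851 RefSeq windows of this length, 1.36%. These exact letters were not in the windows of Ghrl, Gcg or Cck, and variants of the element were not searched for.

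Values are intensities in arbitrary units on a linear scale, as deposited. Array medians lay between 403 and 421. The noise of an array was taken as its 1st percentile with the sign turned, which gave 67 to 96. Replicates of a group correlated at 0.955 to 0.973. Gast, the targeted gene, read 596, 318 and 823 in wild type and no higher than 37 on the 9 knockout arrays, within noise. All 10 parietal cell markers measured were above noise in every group. The arrays of the double knockout had a lower bright end than the rest. The level reached by the top 0.1% of probe sets was 40211 to 43193 there, against 53087 to 65609 on the other 9 arrays. Because of this, each hormone is given on the deposited scale and again after quantile normalization, which gives all arrays the same distribution. Differences are log2 fold changes from limma over all 12 arrays ± SE, with 3 arrays a group, after values under 16 were raised to 16. Adjusted p is Benjamini-Hochberg over 22626 probe sets, called under 0.05. Since each group enters 3 of the 6 comparisons, they have arrays in common. Whether the arrays of groups overlap is given as description only, since its share over all probe sets was not counted.

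Somatostatin RNA was lower in gastrin knockout mice given saline than in wild type, by 2.77-fold, and higher by 2.08-fold when the knockout was given gastrin. The double knockout stood 1.78-fold above the saline group. On the deposited scale, to which these folds belong, both latter differences passed the test narrowly. These are levels in scraped tissue, where fewer D cells and less Sst RNA per cell cannot be told apart.

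On the deposited scale, Sst read 16905, 23726 and 15346 in wild type. In the saline group it read 5681, 8169 and 6216. In the gastrin group it read 13649, 13417 and 14138, and in the double knockout 13737, 12221 and 9744. All 3 saline arrays lay below each of the other 9, and all 3 wild-type arrays lay above each of the 9 knockout arrays. Group means were 18659 ± 4457 (SD, n = 3) in wild type, 13735 ± 368 in the gastrin group, 11901 ± 2016 in the double knockout and 6689 ± 1310 in the saline group. The arrays of the gastrin group and the double knockout overlapped, so these neighbours in the order were not separated by their spread. The gastrin group was also the tightest, with a coefficient of variation of 2.68% against 16.9% to 23.9% in the rest.

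**Figure D1:**
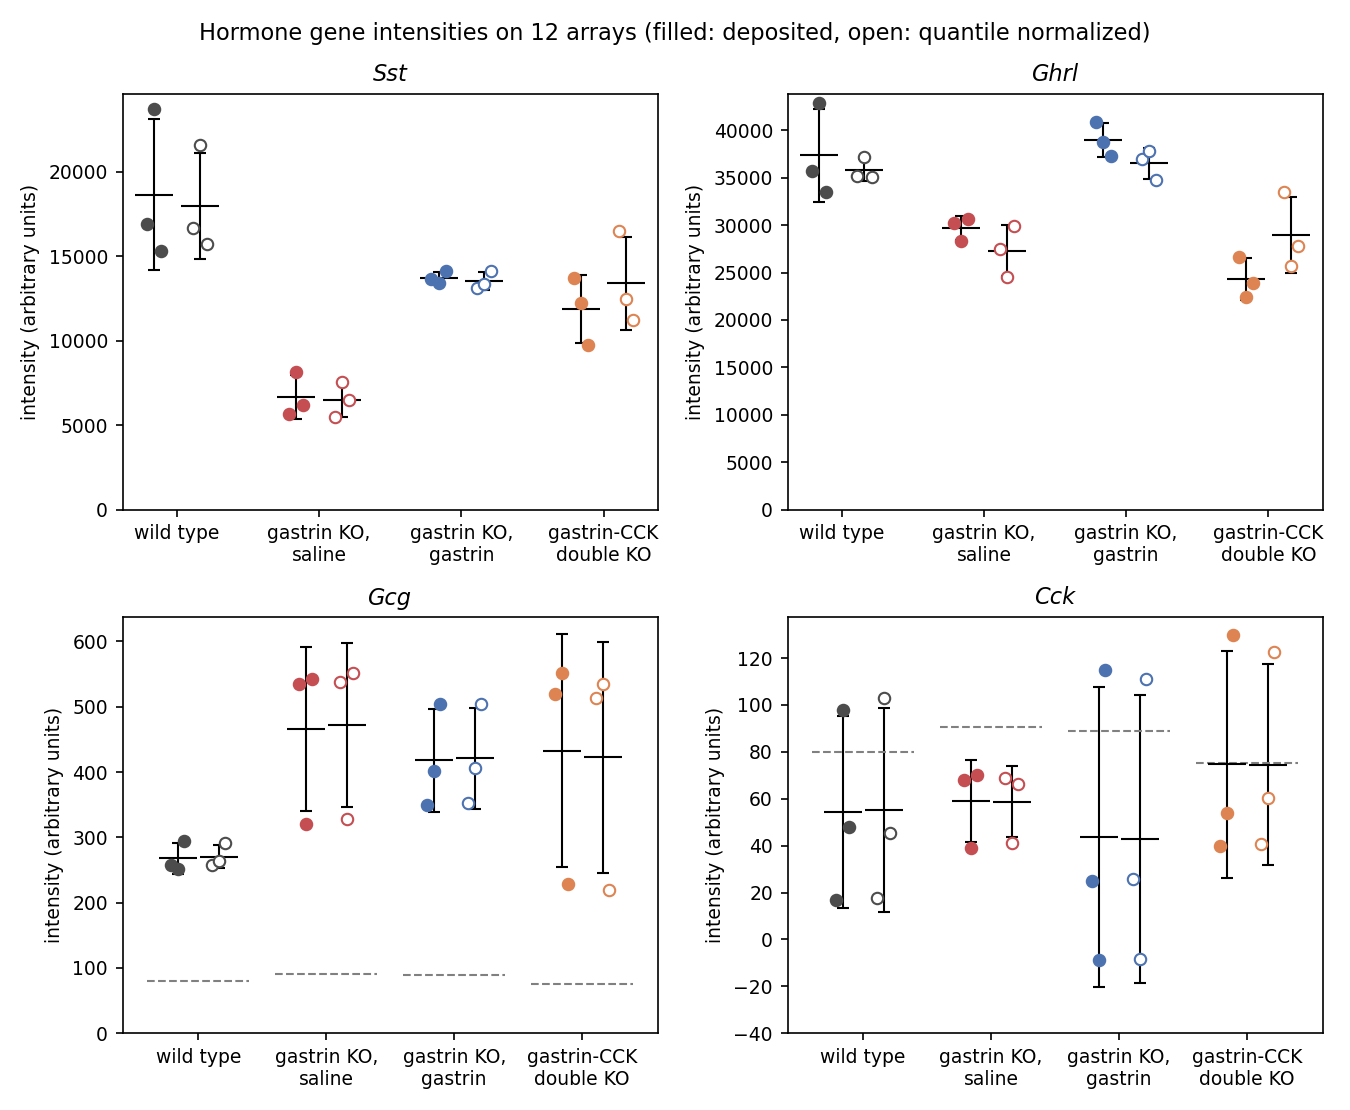
Intensity (arbitrary units, linear axes) of Sst, Ghrl, Gcg and Cck on each of 12 arrays in 4 groups. Filled points are deposited values, open points the same after quantile normalization, horizontal bars the mean and whiskers the SD of 3 arrays; dashed lines in the Gcg and Cck panels mark the mean noise of each group on the deposited scale. The 3 saline arrays of Sst lie between 5681 and 8169, below all others, and Cck lies about its noise lines.

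Against wild type, Sst fell by 1.47 ± 0.20 on the log2 scale in the saline group (limma adjusted p = 0.0132). After quantile normalization the fall was 1.46 ± 0.18 (limma adjusted p = 0.00739). Sst was the only one of the 3 hormone genes tested that was called here on either scale. Over all probe sets, 2.08% were called on the deposited scale and 3.29% after quantile normalization. The fall was called without any one array of these groups (limma adjusted p from 0.0211 to 0.0465). It was not called with only these 2 groups in the fit (-1.47, limma adjusted p = 0.102), nor with the Gapdh control as a covariate.

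Gapdh control probe sets at the 3′ and 5′ ends of the transcript report on RNA quality and target synthesis. Their ratio, 3′ over 5′, was 1.51, 2.00 and 0.98 on the wild-type arrays, highest where Sst was highest. It was 1.01 to 1.18 in the saline group, 1.17 to 1.21 in the gastrin group and 1.29 to 1.32 in the double knockout. With its log2 as a covariate, Sst in the saline group differed from wild type by -1.26 (limma adjusted p = 0.0636). The difference was then 0.99 for gastrin against saline (limma adjusted p = 0.0549) and 0.70 for the double knockout against saline (limma adjusted p = 0.083), so none of the 3 calls of Sst held.

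Given gastrin in place of saline, Sst rose by 1.06 ± 0.20 (limma adjusted p = 0.0425), and by 1.07 ± 0.18 after quantile normalization (limma adjusted p = 0.0208). It was again the only one of 3 tested that passed, where 1.25% of all probe sets passed on the deposited scale and 2.61% after quantile normalization. This call rested on the full set of arrays. Only without saline replicate 2 was it still called, at 1.21 (limma adjusted p = 0.0495). Without any one of the other 5 arrays the rise was 0.95 to 1.07, with adjusted p from 0.0966 to 0.12. It was also not called with median centring (1.05, limma adjusted p = 0.0522) or with only these 2 groups in the fit (limma adjusted p = 0.108).

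The gastrin group did not differ from wild type past the threshold. Sst there was lower by 0.42 on the log2 scale (95% interval -0.86 to 0.03, limma adjusted p = 0.458), or by 0.40 after quantile normalization (limma adjusted p = 0.398), with no overlap between arrays. In this comparison 0 of the 3 hormone genes were called by limma on either scale. At an unadjusted p under 0.05 there were 0 on the deposited scale and 1, Sst, after quantile normalization. The share of all probe sets at that unadjusted threshold is not given. Few probe sets of any kind were called, 0.11% on the deposited scale and 0.225% after quantile normalization.

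The double knockout had less Sst than wild type by 0.64 ± 0.20 on the log2 scale, which did not pass (limma adjusted p = 0.111), and by 0.43 after quantile normalization (limma adjusted p = 0.208). Its arrays lay below those of wild type on the deposited scale and overlapped them after quantile normalization, where double knockout replicate 1 reached 16498. Compared with the saline group, Sst was higher in the double knockout by 0.83 ± 0.20 (limma adjusted p = 0.0409), and by 1.03 ± 0.18 after quantile normalization (limma adjusted p = 0.013). Sst was the only one of the 3 called on either scale, beside 5.98% of all probe sets on the deposited scale and 6.52% after quantile normalization. On the deposited scale this call held only without saline replicate 2 (0.99, limma adjusted p = 0.0445) or double knockout replicate 3 (0.97, limma adjusted p = 0.0445). Without any one of the other 4 arrays it was 0.72 to 0.81, with adjusted p from 0.0966 to 0.134. Nor was it called with median centring (0.80, limma adjusted p = 0.0583) or with only these 2 groups in the fit (limma adjusted p = 0.115). The gastrin group and the double knockout differed by 0.22 (95% interval -0.22 to 0.66, limma adjusted p = 0.576).

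Squamous forestomach markers, which mark tissue from the part of the stomach next to the fundus, varied between arrays of the same group. The sum of the 12 markers was 45565, 15059 and 48708 on the saline arrays and 40137, 7931 and 44563 on those of the double knockout. In wild type it was 8923 to 22245, in the gastrin group 6177 to 22991. Only Krt15 was within noise, in every group but the saline one. Ly6d was called higher in the saline group than in wild type, 1 of 12 beside 2.08% of all probe sets. With gastrin against saline, Ly6d, Slurp1 and Sfn were called lower, 3 of 12 beside 1.25%. Sfn was also called lower in the double knockout than in the saline group, 1 of 12 beside 5.98%. On saline replicate 2, where the sum was low, Ly6d read 3787, against 1698 to 2308 in wild type. The sum thus does not stand for each marker. Within the saline group the array with the lowest sum had the most Sst, 8169. In the double knockout, Sst on the arrays with high sums was both the highest, 13737, and the lowest, 9744. With the log2 sum as a covariate, a setting chosen after the data were seen, the saline group stayed below wild type by 1.36 on the log2 scale (limma adjusted p = 0.045). The rise with gastrin was then 0.92 (limma adjusted p = 0.0997) and the difference of the double knockout from the saline group 0.80 (limma adjusted p = 0.0523), neither called. Of 3 antral markers, Pdx1 averaged 243 to 340 in the 4 groups, and Nkx6-2 read 122 to 160 in wild type and was within noise in the knockout groups.

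**Figure D2:**
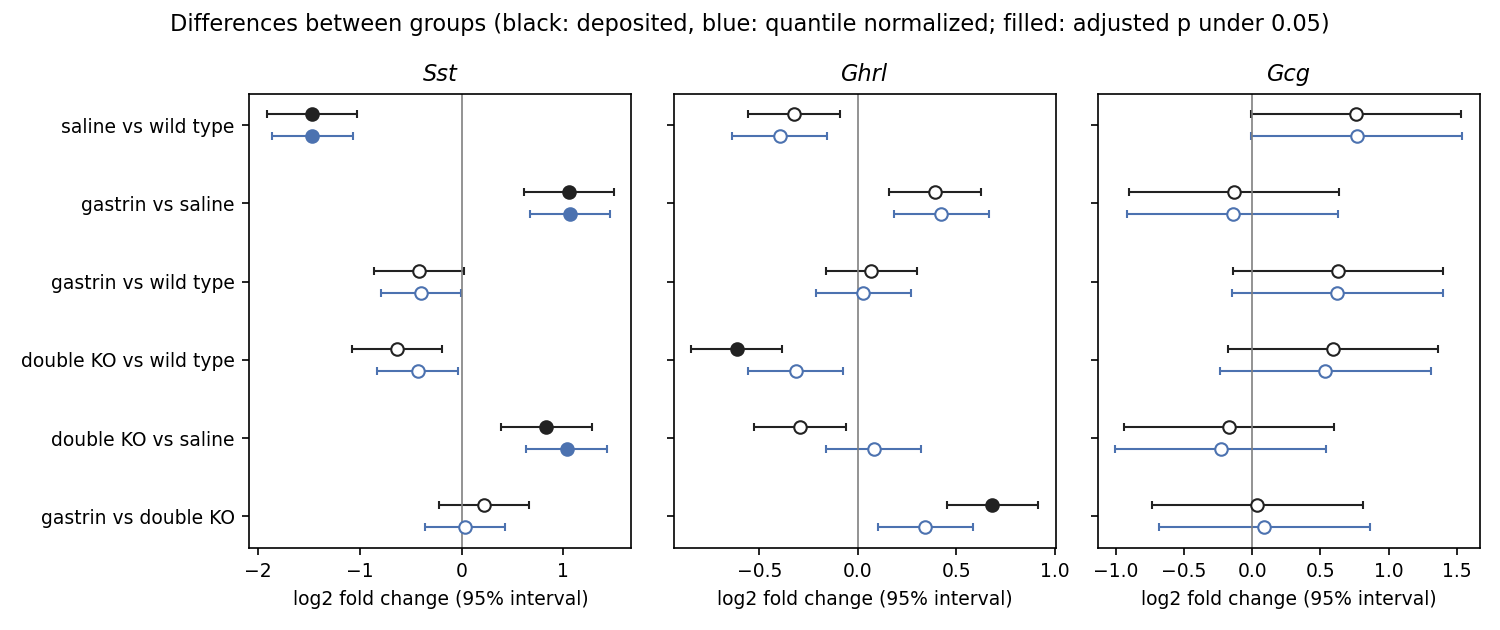
Log2 fold change (x axis) of Sst, Ghrl and Gcg in 6 comparisons, named at the left as first group against second. Points are limma estimates and lines their unadjusted 95% intervals, black for deposited values and blue after quantile normalization, filled where the adjusted p was under 0.05. Sst is called in 3 comparisons on both scales, Ghrl in 2 on the deposited scale only, and Gcg in none; the panels have different x ranges.

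Ghrelin RNA was lowest in the double knockout on the deposited scale, 1.53-fold below wild type and 1.60-fold below the gastrin group. Neither difference was called after quantile normalization, where they were 1.24-fold and 1.27-fold. The saline group lay 1.25-fold below wild type and 1.31-fold below the gastrin group, and neither of these passed on either scale.

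Ghrl read 35686, 42846 and 33541 in wild type on the deposited scale. It read 30263, 28305 and 30624 in the saline group, 40888, 38781 and 37256 in the gastrin group, and 26690, 22389 and 23919 in the double knockout. The gastrin and wild-type arrays overlapped and lay above the other 6 arrays, and the saline arrays lay above those of the double knockout. The means were 38975 ± 1824 in the gastrin group, 37358 ± 4873 in wild type, 29731 ± 1248 in the saline group and 24333 ± 2180 in the double knockout (SD, n = 3).

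After quantile normalization the order of the lower pair turned. The double knockout read 33465, 25656 and 27764, with a mean of 28961 ± 4040, and the saline group 27445, 24548 and 29956, with a mean of 27316 ± 2706 (SD, n = 3). These 6 values overlapped, and all stayed below the wild-type arrays (35087 to 37152) and the gastrin arrays (34716 to 37857).

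Against wild type, Ghrl fell by 0.61 ± 0.10 on the log2 scale in the double knockout (limma adjusted p = 0.0176). It was the only one of the 3 hormone genes tested that was called, beside 4.14% of all probe sets. After quantile normalization the difference was -0.32 ± 0.11 (limma adjusted p = 0.139). None of the 3 was then called by limma, while 4.68% of all probe sets were. At an unadjusted p under 0.05 there were 2 of the 3, and the share of all probe sets at that threshold is not given. Without double knockout replicate 3 the deposited difference was -0.60 (limma adjusted p = 0.052), not called, as it was not with only these 2 groups in the fit (limma adjusted p = 0.114). Without any one of the other 5 arrays it was called.

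Ghrl was higher in the gastrin group than in the double knockout by 0.68 ± 0.10 (limma adjusted p = 0.00946), the only call among the 3 hormone genes, beside 5.83% of all probe sets. After quantile normalization the difference was 0.34 ± 0.11 (limma adjusted p = 0.0937). None of the 3 was then called by limma, where 6.62% of all probe sets were called. At an unadjusted p under 0.05 there was 1 of the 3, and the share of all probe sets at that threshold is not given. Between the double knockout and the saline group the sign depended on the scale, at -0.29 on the deposited one (limma adjusted p = 0.136) and 0.080 after quantile normalization (limma adjusted p = 0.739).

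The saline group differed from wild type by -0.32 ± 0.10 on the deposited scale (limma adjusted p = 0.15) and by -0.40 ± 0.11 after quantile normalization (limma adjusted p = 0.0859). With gastrin in place of saline the difference was 0.39 ± 0.10 (limma adjusted p = 0.105) and 0.42 ± 0.11 (limma adjusted p = 0.0768). In both comparisons the arrays did not overlap on either scale, which adds nothing to these tests. The gastrin group and wild type differed by 0.07 (95% interval -0.16 to 0.30, limma adjusted p = 0.855).

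On the deposited scale the double knockout had the lowest Ghrl and also a lower bright end than the other groups. Of the 227 brightest probe sets, 1% of all, 221 lay below wild type in the double knockout, with a median of -0.34 on the log2 scale, where the median of all probe sets was 0.0. Against the saline group their median was -0.43. After quantile normalization these medians were -0.01 and -0.02, which follows from giving all arrays the same distribution. The 3′ Gapdh control, a housekeeping transcript, read 17037 to 20108 on the double knockout arrays and 23919 to 30963 on the rest. With each array centred on the brightest probe sets, a setting chosen after the data were seen, Ghrl in the double knockout differed from wild type by -0.27 (limma adjusted p = 0.137). Ghrl, at rank 95 by mean intensity, is itself among the 227, so neither scale can separate it from the bright end. Whether the lower bright end belongs to the tissue, the labelling or the scan was not tested.

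**Figure D3:**
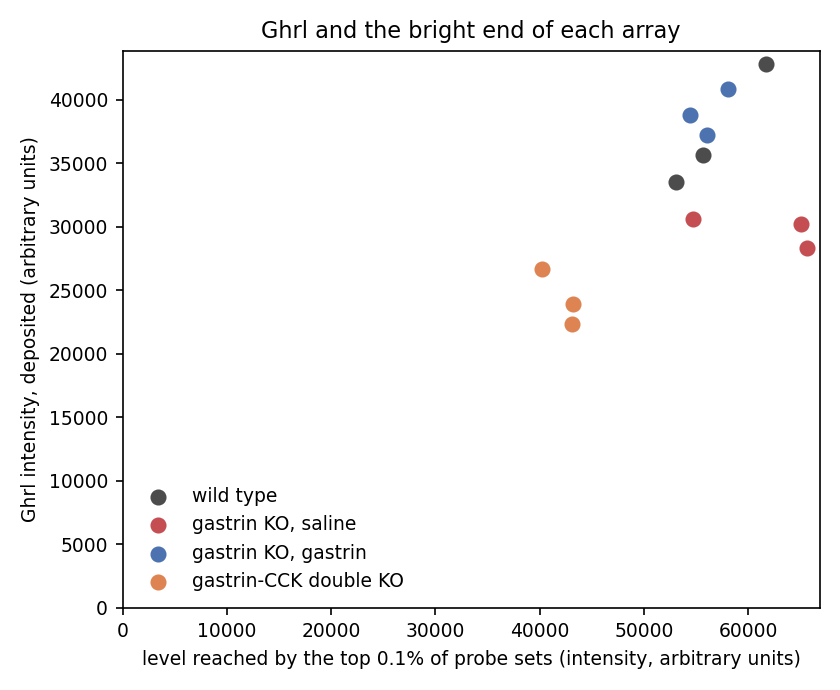
Deposited Ghrl intensity (y axis) against the level reached by the top 0.1% of probe sets on the same array (x axis), both in arbitrary units, 1 point for each of 12 arrays, coloured by group. The 3 double knockout arrays are apart at the lower left (40211 to 43193 on the x axis), and the 3 saline arrays read 28305 to 30624 for Ghrl (54727 to 65609 on the x axis).

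Proglucagon RNA was low and did not pass the test in any comparison on either scale. Gcg read 257, 252 and 295 in wild type, 535, 321 and 542 in the saline group, 349, 402 and 504 in the gastrin group and 519, 551 and 228 in the double knockout. The saline and gastrin arrays all lay above the 3 wild-type arrays, while double knockout replicate 3 lay below them. Means were 268 ± 23.5 in wild type, 466 ± 126 in the saline group, 418 ± 78.8 in the gastrin group and 433 ± 178 in the double knockout (SD, n = 3). All 12 values were above the noise of their arrays.

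Against wild type Gcg differed by 0.76 ± 0.34 on the log2 scale in the saline group (95% interval -0.01 to 1.53, limma adjusted p = 0.283), by 0.63 in the gastrin group (limma adjusted p = 0.524) and by 0.59 in the double knockout (limma adjusted p = 0.392). The last was 1.00 without double knockout replicate 3 (limma adjusted p = 0.0904). The 3 knockout groups differed from each other by -0.17 to 0.04. Each of the 3 intervals against wild type held a difference of 2-fold, while those between knockout groups ran at most from -0.94 to 0.81. With this spread no difference in Gcg was detected, which does not show that there was none.

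Gcg is known from the islet and the intestine, and markers of both were measured. The sum of 5 islet markers was 935 to 1374 in wild type, 801 to 1709 in the saline group, 869 to 1589 in the gastrin group and 1373 to 1983 in the double knockout. Most of it was Ins2, the insulin gene, which read 568 to 858 in wild type, 312 to 1236 in the saline group, 267 to 995 in the gastrin group and 968 to 1475 in the double knockout. Without Ins2 the sum was 367 to 602 over all 12 arrays, and Iapp, another beta cell gene, was within noise in 3 of the 4 groups. In the gastrin group Iapp read 227, 208 and 216, and it was called higher there than in the double knockout. This call was made by 2 of its 4 probe sets, with 1 of opposite sign. Iapp was 1 of 5 islet markers counted, beside 5.83% of all probe sets, and no other was called on the deposited scale. The sum of 8 intestine markers was 30033 to 41725 in wild type, 19828 to 26860 in the saline group, 35027 to 38548 in the gastrin group and 26720 to 28409 in the double knockout, and most of it was Apoa1. Without Apoa1 it was 3535 to 5828 over all 12 arrays. Apoa1 was called higher with gastrin than with saline, by 3 of its 4 probe sets. It was 1 of 5 intestine markers counted, beside 1.25% of all probe sets. No other intestine marker was called on the deposited scale. After quantile normalization 2 of 5 were called lower in the saline group than in wild type, beside 3.29% of all probe sets. With gastrin against saline 1 of 5 was then called higher and 1 lower, beside 2.61%. In the double knockout against saline 1 of 6 was called higher, beside 6.52%. Vil1, the microvillus protein villin, averaged 1211 in wild type, 1766 in the saline group, 985 in the gastrin group and 1342 in the double knockout. Fabp1, a fatty acid binding protein, averaged 1163, 799, 1107 and 1657 in the same order, and Apoa4, an apolipoprotein, 2473, 1070, 2170 and 2118. Cdx1 and Cdx2, transcription factors that define the intestine, were within noise in all 4 groups. The part of either tissue in the Gcg values was not tested.

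CCK RNA was not detected above noise in any group, wild type included. Cck read 17, 98 and 48 in wild type, 68, 39 and 70 in the saline group, 25, -9 and 115 in the gastrin group, and 40, 54 and 130 in the double knockout. The 4 groups overlapped, with 1 array above its noise in each but the saline group. No fold change or test is therefore given. The probe set also gives no check of the deleted Cck gene in the double knockout, since wild type had no signal to lose.

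Other gut hormones and peptides were taken as a list of 18, of which 17 had a probe set. Gast was lower than wild type in each of the 3 knockout groups, and it was the only gene of the list called in any of the 6 comparisons. That was 1 of 16 counted against wild type. Over all probe sets 2.08% were called for the saline group, 0.11% for the gastrin group and 4.14% for the double knockout. The others not called included Pyy, the peptide YY of L cells, with means of 424 to 538. Gip, of duodenal K cells, had means of 77.3 to 217, and Nts, neurotensin, had means of 109 to 187. Median differences over the genes counted ran from -0.12 to 0.34, beside medians of all probe sets within 0.003 of 0. In the gastrin group, Vip, a neuronal peptide, read 729 in replicate 1 and 120 and 42 in the others. The same array had a sum of 28793 over 5 smooth muscle markers, against 3889 to 8359 on the other 11.

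Among receptors for these hormones and gastrin, 9 of 11 had a probe set and 7 were above noise. Cckbr, the CCK-B receptor, read 773, 901 and 996 in the gastrin group and 237, 304 and 374 in the saline group, with no overlap. It rose by 1.56 ± 0.22 with gastrin in place of saline (limma adjusted p = 0.0213), and was higher by 1.41 in the gastrin group than in the double knockout (limma adjusted p = 0.0106). Only 1 of its 2 probe sets was called. It was the only receptor called, in 1 of 7 counted in each of these comparisons and 0 of 7 in the other 4. Over all probe sets 1.25% were called with gastrin against saline and 5.83% with gastrin against the double knockout. Cckar, the CCK-A receptor, read 1673 to 2045 in the saline group and 2273 to 3080 on the other 9 arrays, none of these differences called. Sstr2, the somatostatin receptor of ECL cells, averaged 943 in wild type, 970 in the saline group, 1327 in the gastrin group and 953 in the double knockout, with no difference called.

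Of 14 genes for prohormone processing and the secretory granule, 11 were measured. Chga, the granule protein chromogranin A, read 2041, 2125 and 2098 in the saline group against 6049, 10288 and 7063 in wild type. It fell by 1.86 (limma adjusted p = 0.00898), the only 1 of 11 called, beside 2.08% of all probe sets. Given gastrin it read 8765, 13433 and 10235, and Chga (2.35, limma adjusted p = 0.00531) and Chgb, chromogranin B (3.41, limma adjusted p = 0.0108), were the 2 of 11 called. Of all probe sets 1.25% were called with gastrin against saline. In the double knockout Chga stayed low, at 2987, 2499 and 2262, and did not differ from the saline group past the threshold (0.30, limma adjusted p = 0.481). There Sst was called higher and Chga was not; the difference between these genes was not tested. Between the gastrin group and the double knockout 4 of 11 were called, all higher with gastrin: Chga, Chgb, Scg5, a chaperone of prohormone convertase, and Pcsk1, a convertase. Of all probe sets 5.83% were called in this comparison. Scg5 was called with gastrin against saline only after quantile normalization (1.27, limma adjusted p = 0.0448). Syp, the vesicle protein synaptophysin, was higher in the double knockout than in the saline group (0.51, limma adjusted p = 0.0308), by 1 of its 2 probe sets. This was 1 of 11 called, beside 5.98% of all probe sets. Granins are made by ECL cells as well as by D and X/A-like cells. Hdc, the histamine-forming enzyme of ECL cells, averaged 601 in wild type, 102 in the saline group, 1420 in the gastrin group and 58.7 in the double knockout. It was within noise in the double knockout, and saline replicates 2 and 3 read 73 and 22, below their noise. On the deposited scale Hdc was called in the double knockout against wild type and against the gastrin group. On that scale Hdc was not called in any comparison with the saline group. Of 5 ECL cell markers counted, Chga and Chgb were called higher with gastrin than with saline on the deposited scale. After quantile normalization 3 of the 5 were called higher, beside 2.61% of all probe sets. The share of each cell type in the granin values was not tested.

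**Figure D4:**
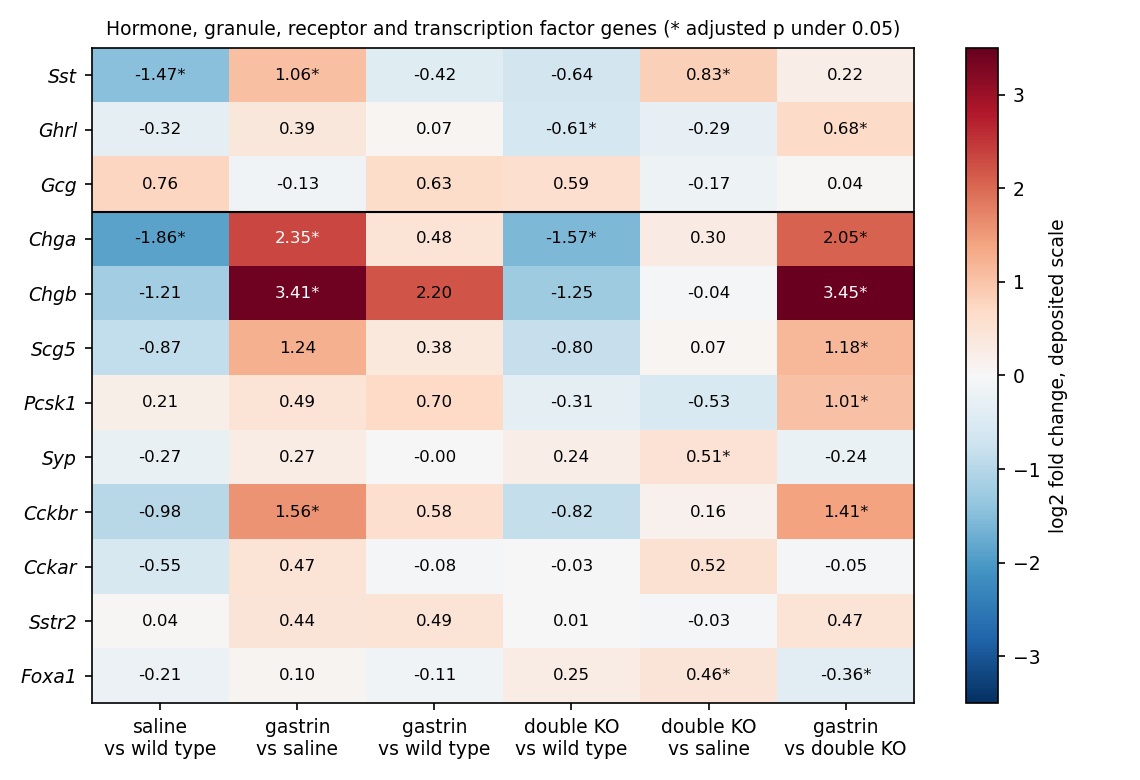
Log2 fold change on the deposited scale of the 3 hormone genes tested (above the line) and 9 listed genes (below it) in 6 comparisons, with the value in each cell, colour from blue (lower) to red (higher), and an asterisk where the limma adjusted p was under 0.05. The genes below the line are those of the receptor, processing and granule, and transcription factor lists that were called in any comparison, with the receptors Cckar and Sstr2. Chga and Chgb have their largest values in the gastrin group against the saline group and the double knockout. In the double knockout against saline the values are 0.83 for Sst, 0.30 for Chga and -0.04 for Chgb. The difference between these genes was not tested.

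Of 20 transcription factors of endocrine cells, 14 were measured, and 11 or 13 of them were above noise in at least one group of a comparison. Foxa1, a factor of the gut epithelium, was the only one called. It averaged 8442 ± 462 in the double knockout, 7113 ± 281 in wild type, 6576 ± 324 in the gastrin group and 6145 ± 462 in the saline group (SD, n = 3). It was higher in the double knockout than in the saline group (0.46, limma adjusted p = 0.0123) and lower in the gastrin group than in the double knockout (-0.36, limma adjusted p = 0.0291). Each was 1 of 13 counted, beside 5.98% and 5.83% of all probe sets in the same order. After quantile normalization Foxa1 was also called higher in the double knockout than in wild type (0.37, limma adjusted p = 0.00517). Hhex, a factor of D cells, averaged 411 in wild type, 434 in the saline group, 422 in the gastrin group and 524 in the double knockout, none called. Isl1 averaged 1253 in wild type and 1567 to 1949 in the knockout groups, none called.

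Over the 12 arrays, the genes whose log2 values ran most like Sst, of 7195 genes compared, were Gga2 (Pearson r 0.983), Auh (0.965), Slc44a3 (0.963), Gatd3a (0.949) and Slc25a39 (0.947). Those least like it were Perp (-0.969), Dsg2 (-0.958) and Ehf (-0.945). Perp and Dsg2 encode desmosome proteins, and Ehf an epithelial transcription factor. The 12 points share groups and the forestomach markers described above. With group means taken out, r was 0.789 to 0.927 for the 5 most alike and -0.789 to -0.695 for the 3 least alike.

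Ghrl ran most like Wdr45 (0.970), Tmem141 (0.968), Atp4b (0.962), Cops9 (0.957) and Ndufa1 (0.949), and least like Epsti1 (-0.904), Psma5 (-0.902) and Bmp2 (-0.894). With group means taken out, r was 0.549 to 0.817 for the 5 most alike, lowest for Ndufa1, and -0.309 for Epsti1, -0.698 for Psma5 and -0.167 for Bmp2. Atp4b, the beta subunit of the parietal cell proton pump, read 47678 to 50892 in the double knockout, 54946 to 63565 in the saline group and 72503 to 88740 in the other 2 groups. After quantile normalization these 5 genes ranked from 39 to 214 in likeness to Ghrl, so the first places depended on the scale. Those of Sst ranked from 1 to 69. Sst and Ghrl themselves correlated at 0.49 on the deposited scale and 0.69 after quantile normalization. Gcg and Cck were below the median of all probe sets, 417, and were not compared in this way.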

How the data were processed

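The authors deposited 1 table of intensity values, linear whole numbers with some below 0, for 22690 probe sets on 12 arrays. Per the labels' protocols, about 1 µg of total RNA was made into biotinylated targets. For background treatment, scaling and probe-set summary, the method is not given in the sources used here. Removal of 64 controls left 22626 probe sets, of which 20380 had 1 symbol in the platform annotation, 691 several and 1555 none. Gene identifiers of 20351 were matched in RefSeq's table (GRCm38.p6), which changed 0 symbols. No column was left unmapped (0). Groups came from the labels.

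Values under 16 were raised to 16 and log2 taken. One mean per group was fitted to all 12 arrays with limma 3.58.1 (R 4.3.3; 8 residual and 1.10 prior degrees of freedom) and adjusted by Benjamini-Hochberg; the fit was tested on simulated data. Python 3.11.15 and matplotlib 3.10.9 made summaries and figures. A probe set within noise in both groups got no fold and no test. The 4 genes and the gene lists were chosen with earlier results of these data known. By rule the text names the 4 genes, listed genes with calls first, and, for members at or above the median, the 5 genes most alike and the 3 least alike. A listed gene is its brightest probe set. The number of arrays limits the precision.

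Alternatives were quantile normalization, median centring, floors of 1 and 64, a filter on dim probe sets, an intensity trend, the Gapdh ratio as a covariate, only the 2 groups compared, a replicate block and leaving out each array. Centring on the brightest 1% and the forestomach covariate were added after the data were seen.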

Additional observations from a re-analysis of the deposited data

How the results depend on the processing

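Of 300 values of Sst, Ghrl and Gcg under an alternative, 263 kept their direction and side of the threshold, 26 lost a call, 1 gained one and 10 changed sign. The fall of Sst in the saline group against wild type lost its call with the Gapdh 3′ to 5′ ratio as a covariate (-1.26, limma adjusted p = 0.0636) and with only the 2 groups in the fit (-1.47, adjusted p = 0.102). Its rise with gastrin lost its call with median centring (1.05, adjusted p = 0.0522), the Gapdh covariate (0.99, adjusted p = 0.0549), only the 2 groups (1.06, adjusted p = 0.108) and the forestomach covariate (0.92, adjusted p = 0.0997), and leaving out 1 array gave 0.95 to 1.21, called in 1 of 6. The double knockout against saline lost it with median centring (0.80, adjusted p = 0.0583), the Gapdh covariate (0.70, adjusted p = 0.083), only the 2 groups (0.83, adjusted p = 0.115) and the forestomach covariate (0.80, adjusted p = 0.0523), and leaving out 1 array gave 0.72 to 0.99, called in 2 of 6. Sst in the double knockout against wild type gained a call with the filter on dim probe sets (-0.64, adjusted p = 0.0401), where fewer probe sets were tested. For Ghrl, the double knockout against wild type lost its call with quantile normalization (-0.32), only the 2 groups (-0.61, adjusted p = 0.114) and centring on the brightest 1% (-0.27); leaving out 1 array gave -0.69 to -0.51. The gastrin group against the double knockout lost it with quantile normalization (0.34) and centring on the brightest 1% (0.33, adjusted p = 0.0721). Signs turned for Ghrl in the double knockout against saline with quantile normalization (0.080) and the brightest 1% (0.11), for Ghrl in the gastrin group against wild type without wild-type replicate 3 (range -0.0058 to 0.17), for Sst in the gastrin group against the double knockout with the brightest 1% (-0.13), for Gcg in the double knockout against saline with the brightest 1% (0.23) and without double knockout replicate 3 (range -0.42 to 0.24), and for Gcg in the gastrin group against the double knockout with the brightest 1% (-0.32), the forestomach covariate (-0.011) and 2 arrays left out in turn (range -0.37 to 0.27). Beyond what a setting's own construction shows, such as fewer samples, the cause was not tested. The filter on dim probe sets gave no value for Gcg. With the replicate block, the rise of Sst with gastrin was 1.06 (limma adjusted p = 0.0578), not called, and it changed no other call of these genes; same-numbered arrays correlated between -0.357 and 0.506, above 0.1 in 5 of 18 pairs, so the numbers were not taken to pair the samples. Counts of called probe sets over all settings ran from 22 to 827 for saline against wild type (470 as reported), 20 to 705 for gastrin against saline (282), 3 to 74 for gastrin against wild type (25), 43 to 4846 for the double knockout against wild type (936), 208 to 6903 against saline (1352) and 295 to 5890 for gastrin against the double knockout (1319). Of 1632 list counts, 268 moved by over 1.5 times, and 3 of 64 group means, all of Ghrl after quantile normalization, moved by more than their SD. Each call of Sst and of Ghrl was lost under at least 2 settings.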
